A study of Homo sapiens with 6 samples.

Results

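Interleukin-1 and interleukin-6 family cytokines reach the cell through small sets of receptor chains, and 10 genes of these receptors and of the step below them were followed here. They were IL1RAP, IL1R1 and IL1RL1 of the interleukin-1 family, IL6ST, IL6R, LIFR, OSMR and IL11RA of the interleukin-6 family, the transcription factor STAT3 and its feedback inhibitor SOCS3. They were taken by gene symbol, with earlier results of these data known, and all 10 were among the 17687 genes tested, each with 1 probe set. The cells were NCI-H2023, an established human lung adenocarcinoma line, so every sample came from the same line. Cells were reverse transfected with a synthetic double of miR-29a-3p, with one of miR-223-3p, or with a control, each at 0.5 nM, and were given fresh medium at 24 h. Each of these 3 groups had 2 samples, lettered A and B, and 1 array per sample. Sample titles describe the control as a control mimic and the protocol as a negative control siRNA. The time of harvest is not given, and nothing says that A and B were separate cultures, so p-values reflect the scatter of these samples alone, and that scatter may be technical.

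The agents under test were the microRNAs themselves, so their mature sequences (RefSeq, GRCh38.p14) are shown 5′ to 3′ with the seed, bases 2 to 8, in capitals. The seed is the stretch that pairs with a target transcript.
miR-29a-3p: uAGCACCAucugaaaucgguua
miR-223-3p: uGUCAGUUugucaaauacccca
The miR-29a-3p sequence lies on chromosome 7 from 130876748 to 130876769 on the minus strand, and the miR-223-3p sequence on chromosome X from 66018937 to 66018958 on the plus strand. The seeds had the same base at 2 of their 7 positions. The miR-29a-3p seed was shared by 3 mature human microRNAs in RefSeq, miR-29a-3p, miR-29b-3p and miR-29c-3p, and the miR-223-3p seed was found in miR-223-3p only. Transcript sequences were not used here, so target sites in the 10 genes were not examined.

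Interleukin-1 binds the receptor IL1R1, and interleukin-33 binds IL1RL1, also called ST2. Each then recruits IL1RAP, the shared accessory chain, and the paired intracellular domains signal through MYD88 and IRAK kinases to NF-kB. Most interleukin-6 family cytokines instead signal through IL6ST, also called gp130, alone or paired with LIFR or OSMR. JAK kinases bound to these chains activate STAT3, which induces SOCS3. IL6R and IL11RA bind their cytokines but do not signal themselves. In the liver the interleukin-6 pathway is best known for the acute phase response.

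All values are log2 signals made by RMA, which corrects background, brings the arrays to a common distribution and summarises the probes of a gene. A difference of 1 is a 2-fold difference. Array medians were 6.21 to 6.23, and samples of the same group correlated across genes at 0.9938 to 0.995, against 0.9922 to 0.9943 between groups. Epithelial markers were bright, all 6 above the median gene, while 0 of 5 lung lineage markers (NKX2-1, NAPSA, SFTPB, SFTPC and SCGB1A1) lay above it, with means over all samples of 3.16 to 4.97. Of leukocyte markers 1 of 8, CD68, and of fibroblast and endothelial markers 1 of 8, COL1A2, lay above it. In limma with the intensity trend, described with the first result, CD68 was called higher with miR-29a-3p than in control (0.665, adjusted p = 0.0489) and than with miR-223-3p (0.745, adjusted p = 0.014). Against control, 4 of the 8 leukocyte markers lay higher with miR-29a-3p and 4 lower, with a list median of -0.033. Among the lower were the dim CD3E and LYZ, by -0.645 and -0.515, without a call. Between miR-29a-3p and miR-223-3p the same fit called 1.94% of all genes. Of the 6 epithelial markers it called 2, both dimmer in the miR-29a-3p samples. They were the cadherin CDH1 (-0.87, adjusted p = 0.036) and the adhesion molecule EPCAM (-0.99, adjusted p = 0.00204). Neither marker was called in the miR-29a-3p samples against control, and their differences had opposite signs (-0.84 for CDH1 and 0.15 for EPCAM). The keratin KRT19 differed from control by 0.515 there, also without a call. The part of these markers in the miR-29a-3p results was not tested. The arrays carry no detection calls, so a dim signal cannot be told from background.

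IL1RAP gave the largest difference from control of the 10 genes. It lies on chromosome 3 from 190514085 to 190659750 (GRCh38). Its signal was 7.23 and 7.07 in control samples A and B, 7.54 and 7.32 with miR-29a-3p, and 8.40 and 8.25 with miR-223-3p. The 3 groups did not overlap, and both miR-223-3p samples lay above the other 4. The mean was 7.15 ± 0.113 in control and 8.325 ± 0.106 with miR-223-3p (SD, n = 2 each), a log2 difference of 1.175 with a standard error of 0.184, or 2.26-fold. Only 0.124% of genes differed more from control in this comparison. In limma with a constant prior, where every gene's spread is drawn toward the same value, the adjusted p was 0.179. With the intensity trend, where that value follows the signal level, IL1RAP rose with an adjusted p of 0.018. That call was lost when any of the 4 arrays compared was left out, with adjusted p of 0.107 and 0.174 without control A or B and 0.158 and 0.0951 without miR-223-3p A or B. The probe set is annotated to 6 RefSeq transcripts, and the membrane and soluble forms of IL1RAP were not told apart.

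The mean log2 signal of the 6 epithelial markers was 13.88 to 13.92 in the control samples, 13.84 to 13.93 in those given miR-29a-3p and 14.15 to 14.34 in those given miR-223-3p. EPCAM, an epithelial adhesion molecule, and the keratin KRT19 were the 2 of 6 called higher with miR-223-3p in the fit with the intensity trend. That fit called 0.684% of all genes in either direction. The differences were 1.14 and 0.82 (adjusted p = 0.00201 and 0.00586 in limma with the trend, 0.199 and 0.368 with the constant prior). The other markers, KRT7, KRT8, KRT18 and CDH1, differed by -0.025 to 0.085, and the list median was 0.058. Their part in the IL1RAP result was not tested.

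The other interleukin-1 receptors did not share this pattern of values. IL1R1, the signalling receptor of interleukin-1 (chromosome 2, 102070390 to 102179874), measured 11.56 and 11.49 in control, 11.92 and 11.47 with miR-29a-3p and 11.54 and 11.32 with miR-223-3p. The groups overlapped in every comparison. Its log2 difference with miR-223-3p was -0.095 with a 95% interval of -0.57 to 0.38, so a difference in IL1R1 as large as that of IL1RAP lay outside the interval. IL1RL1, the interleukin-33 receptor (chromosome 2, 102311563 to 102352356), was dim. It measured 3.90 and 4.34 in control, 3.41 and 3.85 with miR-29a-3p and 3.48 and 3.98 with miR-223-3p. Sample B exceeded sample A in all 3 groups, by 0.44 to 0.50, about as much as the control and miR-29a-3p means differed (-0.49, adjusted p = 0.626 in limma).

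**Figure D1:**
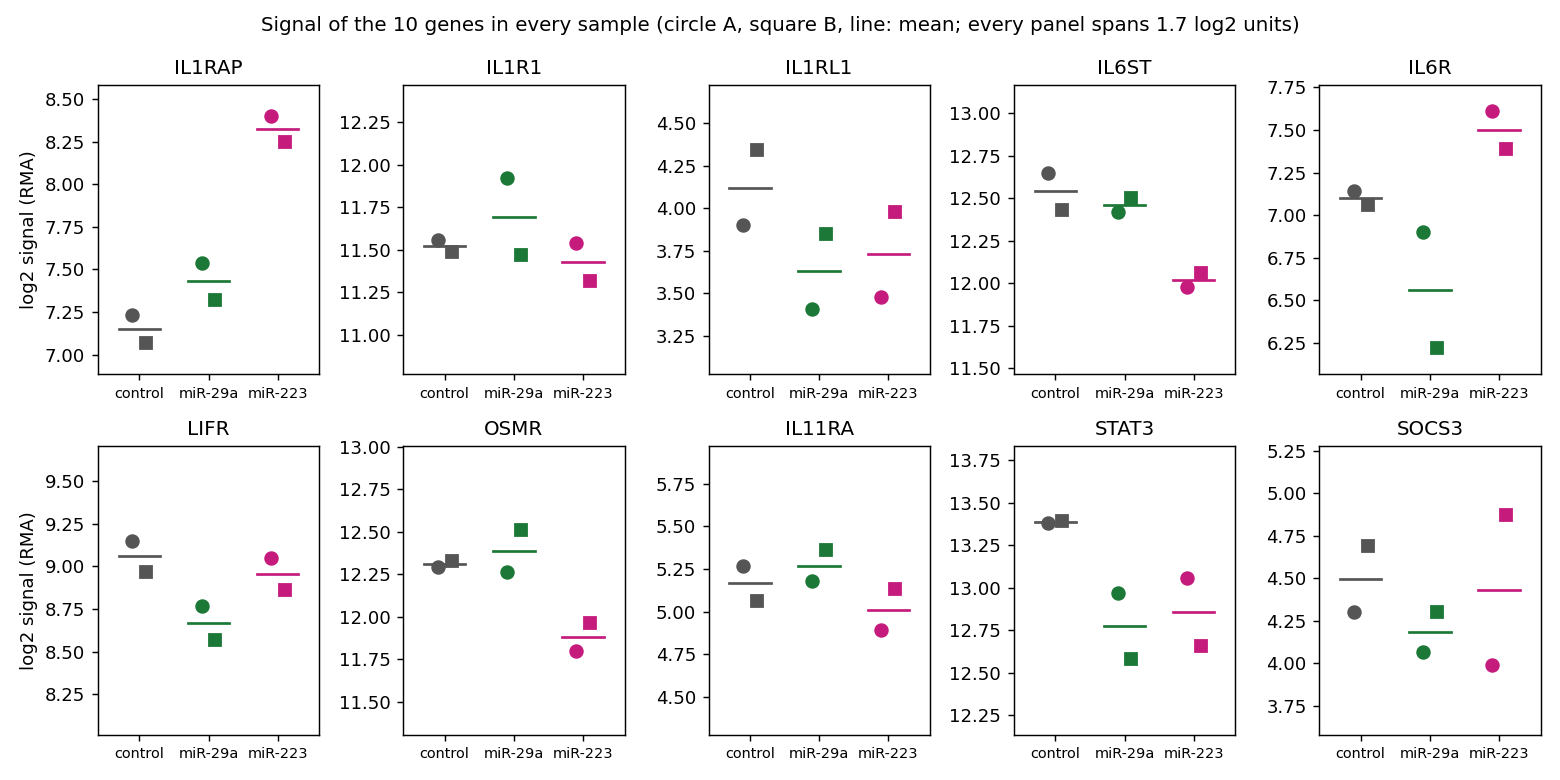
Log2 RMA signal (vertical axis) of each of the 10 genes in every sample, by group (horizontal axis); circles are sample A, squares sample B and lines group means. IL1RAP stands highest in both miR-223-3p samples (8.40 and 8.25), IL6ST and OSMR lowest in both, and STAT3 lies near 13.4 in both control samples and below 13.1 in the other 4.

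Among the signalling chains of the interleukin-6 family, IL6ST and OSMR lay lowest with miR-223-3p. IL6ST, the chain common to most of the family, lies on chromosome 5 from 55935095 to 55994963. It measured 12.65 and 12.43 in control, 12.42 and 12.50 with miR-29a-3p and 11.98 and 12.06 with miR-223-3p. Both miR-223-3p samples were below the other 4, and the log2 difference from control was -0.52 with a standard error of 0.179, or 1.43-fold (adjusted p = 0.561 in limma, 0.109 with the trend). OSMR, the oncostatin M receptor (chromosome 5, 38846012 to 38945579), measured 12.29 and 12.33 in control, 12.26 and 12.51 with miR-29a-3p and 11.80 and 11.96 with miR-223-3p. Its miR-223-3p samples were again below the other 4, by -0.43 from control with a standard error of 0.183 (adjusted p = 0.644 in limma, 0.273 with the trend). With miR-29a-3p neither chain stood apart from control, with differences of -0.08 for IL6ST (95% interval -0.49 to 0.33) and 0.075 for OSMR (-0.34 to 0.49).

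LIFR, the partner of IL6ST for leukemia inhibitory factor (chromosome 5, 38474668 to 38608403), had a different order. It measured 9.15 and 8.97 in control, 8.77 and 8.57 with miR-29a-3p and 9.05 and 8.86 with miR-223-3p. The miR-29a-3p samples were below the other 4, by -0.39 from control with a standard error of 0.186 (adjusted p = 0.6 in limma). Control and miR-223-3p overlapped.

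The ligand-binding chain IL6R (chromosome 1, 154405343 to 154469450) lay on opposite sides of control with the 2 mimics. It measured 7.14 and 7.06 in control, 6.90 and 6.22 with miR-29a-3p and 7.61 and 7.39 with miR-223-3p, and no groups overlapped. The differences from control were -0.54 with miR-29a-3p and 0.40 after miR-223-3p, with adjusted p of 0.577 and 0.772 in limma. The miR-29a-3p samples were 0.68 apart, more than their mean differed from control, and that difference was -0.20 without sample B and -0.88 without sample A. IL11RA, the binding chain for interleukin-11 (chromosome 9, 34652185 to 34661902), measured 5.27 and 5.06 in control, 5.18 and 5.36 with miR-29a-3p and 4.89 and 5.13 with miR-223-3p. Both mimic groups overlapped control, with differences of 0.105 and -0.155.

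STAT3 was lower in all 4 mimic samples than in either control sample. The gene lies on chromosome 17 from 42313324 to 42388442. It measured 13.38 and 13.39 in control, 12.97 and 12.58 with miR-29a-3p and 13.06 and 12.66 with miR-223-3p. The log2 difference was -0.61 with miR-29a-3p and -0.525 after miR-223-3p, each with a standard error of 0.216, or 1.53-fold and 1.44-fold. Without miR-223-3p B the latter was -0.325. The comparisons share the control samples, whose SD was 0.00707 against 0.276 and 0.283 in the mimic groups. Neither passed in limma with the constant prior (adjusted p = 0.479 and 0.631) or with the trend (0.0559 and 0.168). The miR-29a-3p difference was -0.415 without miR-29a-3p B and -0.805 without miR-29a-3p A. With the trend, this difference passed only when a miR-223-3p sample, outside the comparison, was left out. It did not pass without any control or miR-29a-3p sample. The mimics did not differ detectably from each other in STAT3 (-0.085, 95% interval -0.58 to 0.41).

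SOCS3 (chromosome 17, 78356778 to 78360925), which STAT3 induces, was dim and scattered. It measured 4.30 and 4.69 in control, 4.07 and 4.30 with miR-29a-3p and 3.99 and 4.87 with miR-223-3p. The miR-223-3p samples held both the lowest and the highest of the 6 values, and intervals of the differences from control ran from -0.98 to 0.36 and from -0.73 to 0.60. A difference in SOCS3 as large as that of STAT3 would lie within either interval.

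Counted together, limma with the constant prior called 0 of the 10 genes with miR-223-3p, where it called 0% of all genes, and 4 had an unadjusted p under 0.05 (IL1RAP, IL6ST, STAT3 and OSMR), against 7.59% of all genes. With the intensity trend it called 1, IL1RAP, against 0.684% of all genes. The samples did not overlap control for 5 of the 10, 2 above and 3 below, against 36.9% of all genes. With miR-29a-3p, 0 were called with either prior, where 0.0113% and 1.03% of all genes were called, and 1 had an unadjusted p under 0.05 (STAT3), near the 8.86% of all genes. Here too 5 of 10 did not overlap, 1 above and 4 below, against 37.8% of all genes. The median log2 difference over the 10 genes was -0.13 with miR-223-3p and -0.195 with miR-29a-3p, and it was 0 over all genes in both comparisons. The median size of the difference was 0.395 and 0.295, against 0.17 and 0.18 over all genes.

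**Figure D2:**
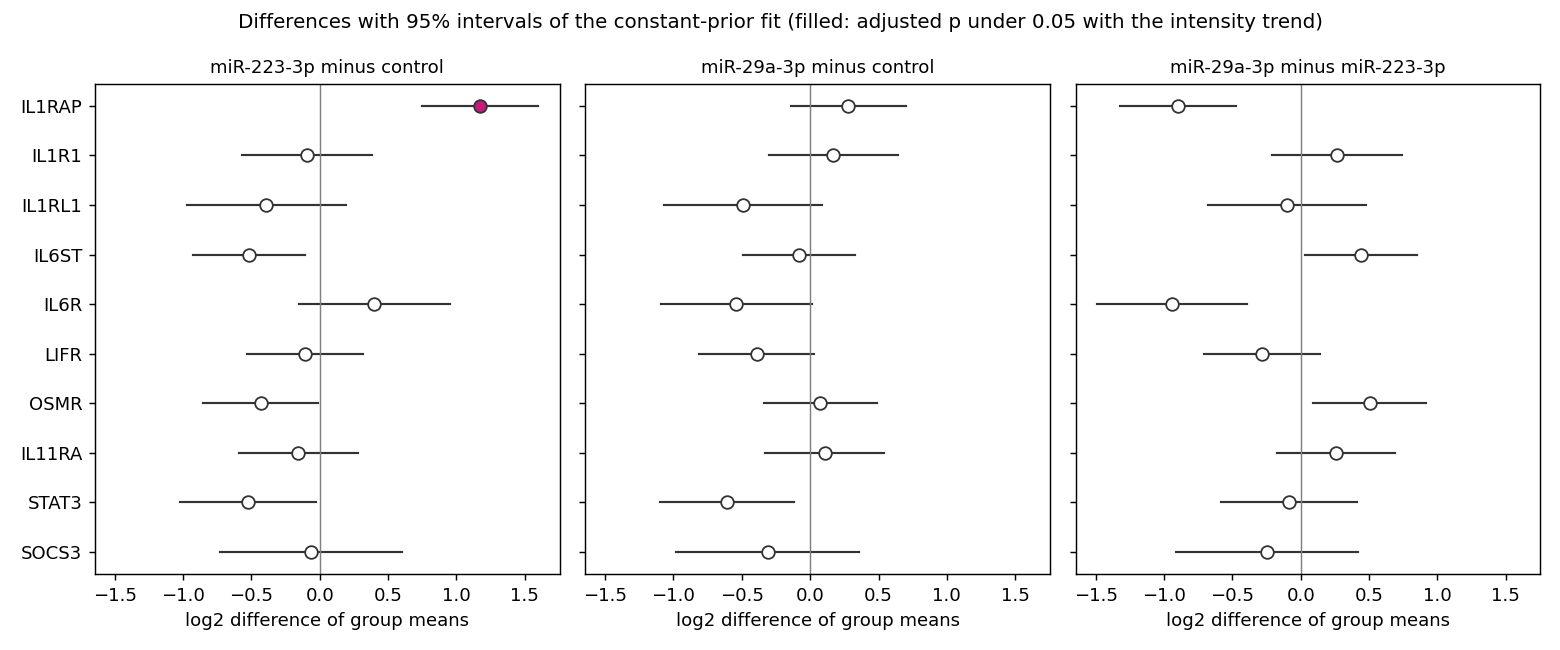
Log2 difference of group means (horizontal axis) for the 10 genes (vertical axis) in the 3 comparisons, with 95% intervals from limma with a constant prior; filled points passed with the intensity trend. IL1RAP with miR-223-3p (1.175) is the 1 filled point, and 4 intervals in that comparison and 1 in the miR-29a-3p comparison exclude 0.

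The mimic groups were also compared directly. IL6R and IL1RAP lay lower in the miR-29a-3p samples than in the miR-223-3p samples, by a log2 difference of -0.94 for IL6R with a standard error of 0.242, or 1.92-fold, and of -0.895 for IL1RAP with a standard error of 0.184, or 1.86-fold. The IL6R difference was -0.60 without miR-29a-3p B and -1.28 without miR-29a-3p A. The adjusted p was 0.222 for IL6R and 0.13 for IL1RAP in limma, and 0.0925 and 0.0522 with the trend. OSMR and IL6ST lay the other way, above in the miR-29a-3p samples by 0.505 and 0.44 (adjusted p = 0.39 and 0.447 in limma, 0.0705 and 0.115 with the trend). These 4 genes had an unadjusted p under 0.05, against 10.3% of all genes. Of the 10 genes 0 were called with either prior, where 0.221% of all genes were called with the constant prior and 1.94% with the trend. The samples of the mimics did not overlap for 6 of the 10, including all 5 interleukin-6 family receptors, against 38.7% of all genes. So the receptor chains did not lie on the same side: IL6R and LIFR were below and IL6ST, OSMR and IL11RA above with miR-29a-3p.

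Genes around these receptors were taken from 10 lists of ligands, other receptors, kinases and induced genes, with 95 of 108 genes measured. The ligands and remaining receptors gave no call with either prior in any comparison. This held for 11 ligands of the interleukin-1 family, 9 of the interleukin-6 family, and 7 and 3 other receptors of these families. The ligand IL1A measured 3.57 in control, 4.175 with miR-29a-3p and 4.075 after miR-223-3p, and IL33 3.31, 3.63 and 3.88, both dim. LIF, a ligand of LIFR, measured 6.14, 5.52 and 5.63, with differences of -0.62 and -0.51 from control (unadjusted p = 0.0452 and 0.0877 in limma). IL1R2, a decoy receptor that binds interleukin-1 without signalling, measured 11.595, 12.035 and 11.495.

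Below the receptors, IRAK2, a kinase of the interleukin-1 pathway, was the 1 gene of 10 measured in its list to be called, and this between the mimics. The fit with the trend called 1.94% of all genes in that comparison. IRAK2 measured 6.24 and 5.87 in control, 6.37 and 6.79 with miR-29a-3p and 5.62 and 5.19 with miR-223-3p. The difference between the mimics was 1.175 with a standard error of 0.24 (adjusted p = 0.124 in limma, 0.0395 with the trend). That call was lost without any 1 of the 4 mimic samples (0.0552 to 0.315). The 12 measured genes of JAK and STAT signalling gave no call with either prior. Among them JAK1, a kinase bound to IL6ST, measured 13.645 in control, 13.89 with miR-29a-3p and 13.56 after miR-223-3p. The sheddases ADAM10 and ADAM17, which release IL6R from the membrane, gave no call either.

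Of 12 measured genes that STAT3 is known to induce, CCND1 and MYC were called. The fit with the trend called 0.684% of all genes with miR-223-3p and 1.94% between the mimics. CCND1, the cyclin D1 gene, measured 9.98 and 10.16 in control, 10.21 and 10.30 with miR-29a-3p and 9.05 in both miR-223-3p samples. It was lower with miR-223-3p by -1.02 with a standard error of 0.175 (adjusted p = 0.199 in limma, 0.0057 with the trend, and 0.0988 with the trend without control B). Between the mimics its difference of 1.205 passed with the constant prior too (adjusted p = 0.0458). The constant-prior call was lost without any 1 of the 6 samples (0.0923 to 0.303), and the trend call was kept in all 6. MYC was called between the mimics with the trend, at 0.65 with a standard error of 0.182 (adjusted p = 0.0255), and lost without miR-29a-3p A, miR-29a-3p B or miR-223-3p B (0.102, 0.181 and 0.299). Against control, miR-29a-3p gave no call in this list. The log2 difference was 0.185 for CCND1 and -0.755 for CEBPB (adjusted p = 0.465 for CEBPB in limma, 0.13 with the trend).

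Acute phase genes, the classic output of interleukin-6 in liver, were 16 of 18 measured. With the trend, FGB and FGA, chains of fibrinogen, fell with miR-223-3p by log2 differences of -0.61 and -0.395, from means of 16.06 and 16.68 in control (adjusted p = 0.00203 and 0.0368, and 0.451 and 0.648 with the constant prior). With 1 sample left out, FGB was called in all 6 cases and FGA in 0 of 6 (0.077 to 0.369). FGB measured 16.07 and 16.05 in control, 15.91 and 16.01 with miR-29a-3p and 15.45 in both miR-223-3p samples. Between the mimics FGB and FGG were called higher with miR-29a-3p, by 0.51 and 0.375 (adjusted p = 0.00368 and 0.0456 with the trend, 0.347 and 0.513 with the constant prior), calls lost without miR-29a-3p B for FGB (0.0738) and without any 1 sample for FGG (0.0626 to 0.267). ORM1, an acid glycoprotein, fell with miR-29a-3p by -0.925 with a standard error of 0.206 (adjusted p = 0.224 in limma, 0.0426 with the trend), a call lost without any 1 of the control or miR-29a-3p samples (0.0558 to 0.293). ORM1 was also called lower with miR-29a-3p between the mimics, by -0.92 (adjusted p = 0.0271 with the trend), and this was lost without miR-29a-3p A, miR-223-3p A or miR-223-3p B (0.265, 0.154 and 0.131). ORM2 is a near-identical copy, so the signals of the pair may be shared. ORM2 differed from control by -0.835 with miR-29a-3p (adjusted p = 0.307 in limma, 0.0576 with the trend), without a call. With miR-223-3p it differed by -0.49, also without a call, and ORM1 by -0.005. The list median was -0.135 with miR-223-3p and 0.005 with miR-29a-3p.

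Genes that interleukin-1 induces through NF-kB moved in both directions with miR-223-3p. LCN2, an iron-binding lipocalin, measured 5.53 and 6.21 in control, 6.06 and 5.99 with miR-29a-3p and 7.57 and 7.29 with miR-223-3p, a rise of 1.56 with the trend (adjusted p = 0.00991). The LCN2 call was lost without control A or miR-223-3p A (0.226 and 0.102). CCL2, a monocyte chemokine, measured 10.56 and 10.09, 10.61 and 10.64, and 9.66 and 9.31 in the same order, and fell with miR-223-3p by -0.84 (adjusted p = 0.0444 with the trend). Of the 6 samples, leaving out any except control B ended the CCL2 call (0.0524 to 0.561). With miR-29a-3p the chemokine CXCL1 rose by 0.945 (adjusted p = 0.0147 with the trend), a call lost without control A, miR-29a-3p A or miR-29a-3p B (0.193, 0.117 and 0.101). Between the mimics CCL2 and the adhesion molecule ICAM1 were called higher with miR-29a-3p and LCN2 lower. The CCL2 and ICAM1 calls were kept with any 1 sample left out, and the LCN2 call was lost without miR-29a-3p A, miR-29a-3p B or miR-223-3p A (0.0763, 0.0948 and 0.0983). None of the 13 measured genes of this list passed with the constant prior, whose smallest adjusted p was 0.0842.

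Over all 10 lists the trend called 5 genes with miR-223-3p, 1 higher and 4 lower, 2 with miR-29a-3p, 1 higher and 1 lower, and 9 between the mimics, each of 95 measured. The shares over all genes in the same fit were 0.684%, 1.03% and 1.94%, so the miR-29a-3p count lay near its background. The lists were chosen with earlier results of these data known, so a count above its share is only a description. Leaving out samples changed these counts. With miR-223-3p it was 2 without control A and 3 without any other sample. With miR-29a-3p it was 3 without either miR-223-3p sample, 1 without control B and 0 without control A or either miR-29a-3p sample. Between the mimics it was 8 without either control sample, 4 without either miR-29a-3p sample, and 6 and 5 without miR-223-3p A and B.

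**Figure D3:**
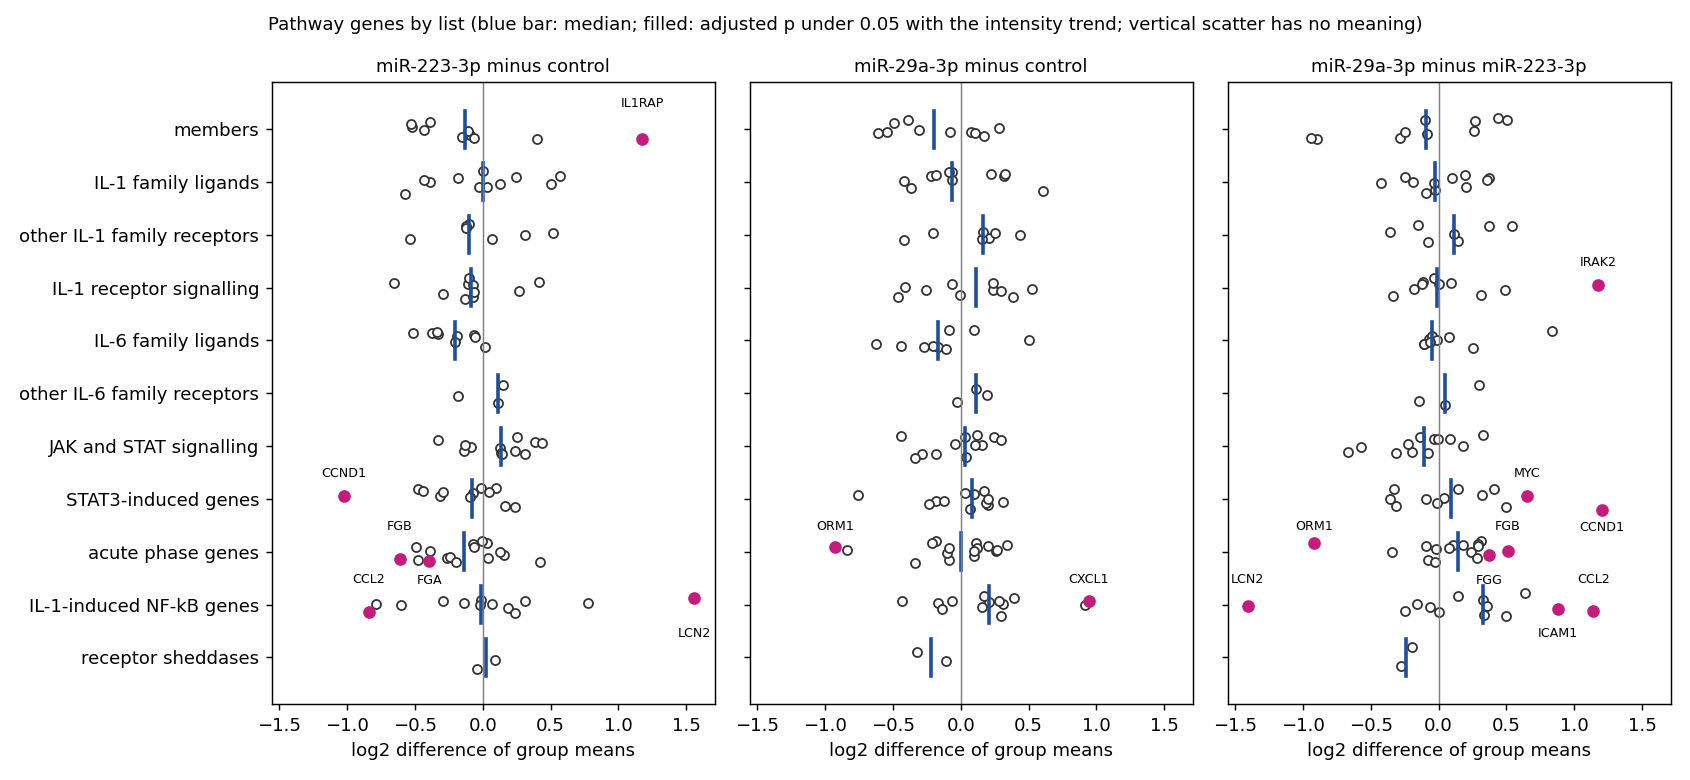
Log2 difference of group means (horizontal axis) for the 10 genes, called members in the plot, and for each list of pathway genes (rows) in the 3 comparisons; blue bars are medians and filled, named points passed with the intensity trend. The filled points in the miR-223-3p comparison lie at both ends, from CCND1 at -1.02 to LCN2 at 1.56, while the ligand and other receptor lists hold none.

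IL1RAP had the smallest p of the 10 genes in the test over all 3 groups, so the genes with the closest values over the 6 samples were sought by the root mean square distance, each gene centred on its own mean. The 5 closest were APOE, MAST3, EPCAM, ZNF676 and GNRHR, at distances of 0.168 to 0.183 on the log2 scale. EPCAM measured 10.49 and 10.16 in control, 10.36 and 10.59 with miR-29a-3p and 11.39 and 11.54 with miR-223-3p. APOE, an apolipoprotein, measured 7.22 and 7.49, 7.51 and 7.62, and 8.58 and 8.28 in the same order. The 5 genes were chosen for these values, so their differences are a description and were not tested.

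**Figure D4:**
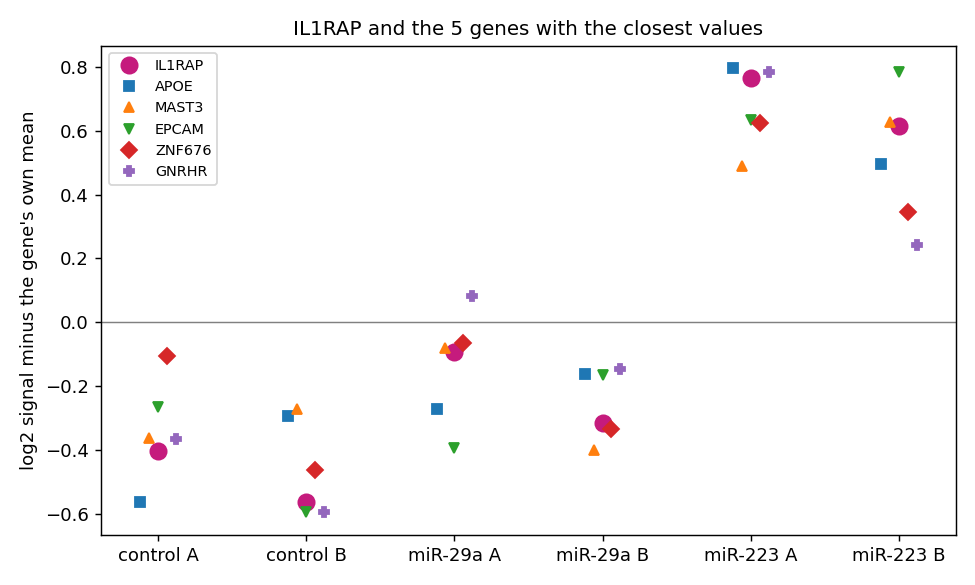
Log2 signal minus the gene's own mean (vertical axis) in each of the 6 samples (horizontal axis) for IL1RAP and the 5 genes with the closest values. The 5 genes were chosen for lying close to IL1RAP, at distances of 0.168 to 0.183, and the shared shape follows from that choice.

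Since STAT3 had the largest difference of the 10 genes with miR-29a-3p, the promoters of the 10 genes were searched for the STAT motif TTCNNNGAA, which reads the same on both strands, in the 250 bases before each start. RefSeq promoters of all 10 genes were found, 18 in number since some have several starts. The motif was in 3 of these 18, for 2 genes, and in 6.57% of 35116 promoters. The matches are shown in capitals with 10 bases on each side, on the strand of the gene (GRCh38.p14).
IL1R1, chr2:102142249-102142277, plus strand: tgatccctttTTCACAGAAgaggaaacgg
LIFR, chr5:38595552-38595580, minus strand: ccattactagTTCCTTGAAccacaatcca
LIFR, chr5:38557631-38557659, minus strand: gctttggagtTTCATCGAAaggtctttaa
No match was found in these windows of SOCS3 or the other 7 genes. The NF-kB motif, searched on both strands, was in 2 of the 18 promoters, of IL6ST and IL11RA, and in 9.96% of all promoters.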

How the data were processed

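The authors deposited 1 table of log2 values, 1 per probe set and array, made with RMA per the submitters' processing notes, which also name hg38. The RMA version is not given in those notes. RMA removes differences in total signal between arrays and compresses differences of dim genes. Of 21448 probe sets, 17709 had 1 annotated gene, 0 had several and 3739 were unnamed. Keeping the brightest probe set per gene left 17687 genes, named through RefSeq. Values were not normalized again.

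The 3 contrasts were tested across all genes with limma 3.58.1 in R 4.3.3 in 1 fit of 6 samples with 3 residual degrees of freedom, no block, a constant prior and Benjamini-Hochberg adjustment at 0.05. Standard errors and 95% intervals are those of the moderated test. Precision is limited by the number of arrays. The procedure was tested on simulated data in which the spreads were shuffled across genes. That test could not show how the intensity trend performs where spread follows signal, as it does here. Group titles gave the groups.

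The 10 genes and the gene lists were chosen with earlier results of these data known. Named genes are all 10, at most 4 per list and contrast (called first, then smallest p) and the 5 closest to the gene with the smallest p over 3 groups. Marker genes are named outside that rule, EPCAM, KRT19, CDH1, CD68, COL1A2, CD3E and LYZ after their values were seen. Alternatives were the intensity trend, a robust prior, fitting the compared groups alone, the replicate letter as a block, leaving out dim genes (mean at or below the median gene), a second quantile normalization, median centring, all probe sets and leaving out each sample. The trend combined with the block or with left-out samples was added after seeing the data. Of 108 list genes 13 were not analysed here.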

Additional observations from a re-analysis of the deposited data

How the results depend on the processing

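Of the alternatives, none of the second quantile normalization, median centring, robust prior, compared groups alone or all probe sets called any of the 10 genes or turned a direction among their 30 differences. With miR-223-3p, 1 gene (IL1RAP) was called with the intensity trend, with the trend and the replicate block, and without dim genes (adjusted p = 0.018, 0.0126 and 0.033), and 0 to 1 with samples left out. With miR-29a-3p, 1 (STAT3) was called with the trend and block (adjusted p = 0.0143), and 0 to 1 with samples left out. Between the mimics, 2 were called with the trend and block (IL1RAP and OSMR) and 1 without dim genes (IL1RAP). Pathway genes called were 5 with the trend, 6 with the trend and block and 1 without dim genes for miR-223-3p, 2, 5 and 2 for miR-29a-3p, and 9, 11 and 4 between the mimics. There the 1 call of the constant prior became 0 with the compared groups alone, with the replicate block and with all probe sets. Leaving out samples gave 0 to 3, 0 to 3 and 0 to 8.

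Leaving out 1 sample turned these differences, none of them called. With miR-223-3p, IL1R1 ran from -0.205 to 0.015 and SOCS3 from -0.505 to 0.375. With miR-29a-3p, IL1R1 ran from -0.055 to 0.395, IL6ST from -0.19 to 0.03 and OSMR from -0.05 to 0.2. Between the mimics, IL1RL1 ran from -0.35 to 0.15, STAT3 from -0.285 to 0.115 and SOCS3 from -0.685 to 0.195. The causes were not tested. Where this left 1 sample in a group, its spread was taken from the others. The labels do not say whether letters A and B mark a shared culture or day. The A minus B differences of the groups correlated across genes at 0.00393 to 0.134, which cannot show whether the letters pair the samples. The replicate block alone called 0 of the 10 genes in all 3 comparisons. The median residual SD was 0.226 for genes with mean signals up to 4, where IL1RL1 lies, 0.264 from 4 to 6, where SOCS3 lies, and 0.111 above 12, where IL6ST, OSMR and STAT3 lie.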
